A study of Homo sapiens with 32 samples.

Results

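Inflammasomes are protein platforms of the innate immune system. A sensor protein (NLRP3, AIM2, NLRC4, NLRP1 or pyrin, the product of MEFV) recruits the adaptor ASC, encoded by PYCARD, or caspase-1 directly, and active caspase-1 cuts the precursors of IL-1β and IL-18 and the pore-forming protein gasdermin D (GSDMD). Caspase-4 and caspase-5 bind LPS inside the cell and cut GSDMD without such a platform, which is called the non-canonical pathway. Monocytes are a main source of these cytokines, and transcription of NLRP3 and IL1B in response to LPS is known as the priming step. The 10 inflammasome components described here (NLRP3, AIM2, NLRC4, NLRP1, MEFV, PYCARD, CASP1, CASP4, CASP5 and GSDMD) were chosen by gene name, and each name matched exactly 1 of the 60107 genes in the count tables.

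Gene expression was measured by 3′ mRNA sequencing in THP-1 cells, a human monocytic leukaemia line, in 32 libraries that form 8 groups of 4. The lines differed in ATP-citrate lyase (ACLY), the enzyme that makes cytosolic acetyl-CoA: KO cells lack ACLY, and the WT, HA and SA lines are ACLY knockout cells transduced with a lentivirus that encodes wild-type ACLY, the catalytically inactive mutant H760A or the phosphorylation-deficient mutant S455A. Each line was sequenced untreated and after 3 hours with 100 ng/ml LPS. The WT line is thus itself a rescued knockout, each genotype is 1 line, and the effect of a genotype and that of the line that carries it cannot be told apart. Whether the KO line was transduced and selected is not given in the sources used here. The study asked whether ACLY and its phosphorylation at serine 455 shape the inflammatory response of these cells.

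The libraries held between 6504099 and 14750815 reads on genes, with a median of 10247620. ACLY was called in none of the 15 comparisons. Its normalized counts ran from 67.2 to 107 in KO and from 90.7 to 117 in WT (log2 fold change -0.21, SE 0.28, limma adjusted p = 0.884), and every HA LPS library was below every WT LPS library (-0.61, adjusted p = 0.266). Reads from the 3′ end need not fall where the gene was edited, so the genotype labels could not be checked on it. The lentivirus carried the ACLY coding sequence, and whether reads from that copy were counted as ACLY was not tested. All 10 monocytic markers looked at (CD14, CD33, CD68, ITGAM, LYZ, SPI1, CSF1R, FCGR1A, TYROBP and MPO) were detected in every library, whereas the T cell gene CD3E, the epithelial gene KRT19 and the fibroblast genes COL1A2 and COL3A1 had 0 reads in all 32. The summed normalized count of the 8 LPS markers ran from 4791 to 5935 in WT and from 7851 to 9863 in WT LPS. Library 1 of SA LPS stood apart: it held reads on 13460 genes, the other 31 on 14953 to 18552. Libraries numbered 3 of WT, WT LPS, KO and KO LPS departed from their groups together, and several values that rest on these 5 are also given without them. HA 1 and HA LPS 1 are not among these 5. They held reads on 15123 and 14953 genes, fewer than any library numbered 3, and had the highest AIM2 count of their groups (82.4 and 196). Tests used limma on the log2 of the normalized count plus 1, in a single fit over all 8 groups, over the 12406 genes with a mean deposited count of at least 10, and a gene was called at a Benjamini-Hochberg adjusted p below 0.01. The labels do not say whether the 4 libraries of a group came from separate cultures, so p-values measure the spread between these libraries, which may be technical.

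Of the 10 components 8 passed the filter on low counts, and NLRP1 and CASP5 did not. AIM2 was the only one of the 8 that was called in any of the 15 comparisons. It was higher in KO than in WT and higher in HA than in WT, with and without LPS, and higher in SA LPS than in SA. The adaptor PYCARD and the inflammatory caspases and effectors CASP1, CASP4 and GSDMD, and the sensors NLRP3, NLRC4 and MEFV, were not called anywhere in that fit.

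AIM2 (ENSG00000163568; GRCh38 chromosome 1, 159061599 to 159187843, minus strand) encodes a cytosolic sensor of double-stranded DNA. Its normalized counts in the 4 untreated WT libraries were 10.02, 1.67, 8.96 and 16.6, and in the 4 untreated KO libraries 222, 181, 220.3 and 151. Every KO library was therefore far above every WT library, with no overlap, which 12% of all genes showed in either direction. The mean was 193 ± 34.1 in KO and 9.32 ± 6.12 in WT (SD, n = 4), a ratio of 20.8, and the log2 fold change was 4.50 (SE 0.41, 95% interval 3.65 to 5.35, adjusted p = 1.12e-08). In this comparison 1 of the 8 tested components was called, against 2.9% of all 12406 genes. With the lowest library left out (WT 2, at 1.67) the log2 fold change was 3.95, and without the 4 WT and KO libraries numbered 3 it was 4.51.

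In the untreated HA line, which carries the inactive enzyme, AIM2 stood at 82.4, 39.9, 36.6 and 45.0. These libraries lay above all WT libraries and below all KO libraries, and 17.6% of all genes did not overlap between HA and WT. The mean of 51.0 ± 21.2 was 5.47 times that of WT, with a log2 fold change of 2.54 (SE 0.41, adjusted p = 2.09e-04), and AIM2 was again the 1 called component, against 2.52% of all genes. In a fit of only the 8 libraries of HA and WT the same difference had an adjusted p of 0.0194. KO against HA gave a log2 fold change of 1.96 (SE 0.41, adjusted p = 0.0178), which missed the threshold, in a comparison in which 0.226% of genes were called and 4.98% of genes did not overlap between the groups. With LPS the difference between KO LPS and HA LPS was 1.29 (adjusted p = 0.226), where 0.00806% of genes were called and 5.09% did not overlap. That 1 called gene became 60 on the deposited scale, 23 with the replicate block over all groups, 17 without SA LPS 1 and 21 without the libraries numbered 3, and AIM2 was called in none of these.

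The untreated SA line, whose ACLY cannot be phosphorylated at serine 455, had AIM2 counts of 24.4, 8.03, 9.04 and 15.1. This range overlapped that of WT. The log2 fold change of 0.71 (SE 0.41, 95% interval -0.14 to 1.56, adjusted p = 0.998) was not called, and no gene was called between untreated SA and WT by limma (0%), while 445 genes had an unadjusted p below 0.05.

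**Figure D1:**
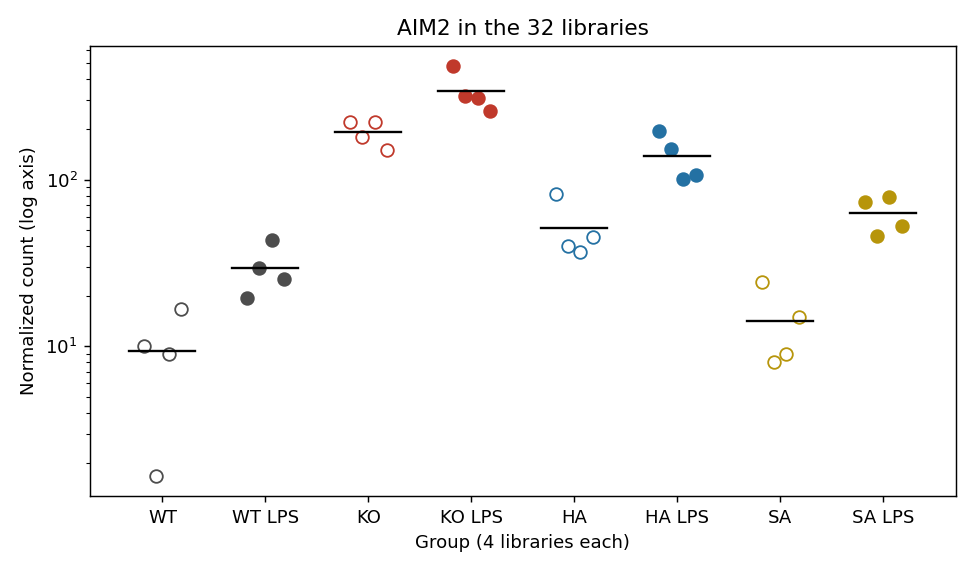
Normalized counts of AIM2 on a log axis in the 32 libraries, by group; each circle is a library (open untreated, filled with LPS) and each line the mean of 4. All KO and KO LPS libraries sit between 151 and 477, above every WT and WT LPS library, the highest of which is at 43.4, and the means of HA lie between those of WT and KO, as do those of HA LPS between WT LPS and KO LPS.

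With LPS the order of the lines was the same. AIM2 stood at 19.5, 29.5, 43.4 and 25.4 in WT LPS, at 477, 316, 306 and 256 in KO LPS, at 196, 153, 101 and 106 in HA LPS and at 72.9, 45.6, 79.0 and 53.0 in SA LPS. No library of KO LPS, HA LPS or SA LPS was as low as the highest of WT LPS, and 13.9% and 13.5% of all genes did not overlap between KO LPS or HA LPS and WT LPS. KO LPS exceeded WT LPS by a log2 fold change of 3.50 (SE 0.41, adjusted p = 9.38e-07) and HA LPS by 2.21 (adjusted p = 0.00111). AIM2 was the 1 called component in each, against 3.47% and 2.02% of all genes. SA LPS against WT LPS was 1.09 (95% interval 0.24 to 1.93, adjusted p = 0.825), which was not called. As without LPS, limma called no gene (0%) between SA LPS and WT LPS, with 646 at an unadjusted p below 0.05, while 2.61% of genes did not overlap between these groups.

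Under LPS itself AIM2 was higher in all 4 lines, in the sense that every LPS library was above every untreated library of the same line. The mean ratio was 3.16 in WT, 1.75 in KO, 2.73 in HA and 4.43 in SA. Only the SA difference passed the threshold (log2 fold change 2.16, SE 0.41, adjusted p = 0.00366), as 1 of 8 tested components against 0.492% of all genes, and it missed it when SA LPS library 1 was left out (2.08, adjusted p = 0.0154), when SA 2, SA 3 or SA LPS 3 was, and when only these 8 libraries were fitted (adjusted p = 0.149). The log2 fold change was 1.78 in WT (adjusted p = 0.0507), 0.78 in KO (adjusted p = 1.00) and 1.45 in HA (adjusted p = 0.171). In those 3 comparisons no component was called, with 0.25%, 0.58% and 0.403% of genes called, while 2.6%, 3.45% and 3.49% of genes did not overlap between the groups. Between SA LPS and SA 4.18% of genes did not overlap. The LPS response of AIM2 in KO minus that in WT was -1.001 on the log2 scale (95% interval -2.20 to 0.20, adjusted p = 1.00), in HA minus WT -0.33 and in SA minus WT 0.38. None of these was called, against 0.00806% of genes in KO minus WT and 0% in the others, so a difference between the lines in the response to LPS was not detectable.

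In order of mean AIM2 level the 8 groups ran WT, SA, WT LPS, HA, SA LPS, HA LPS, KO and KO LPS. Neighbours in that order overlapped in their libraries, except that SA LPS lay wholly below HA LPS and KO wholly below KO LPS. Untreated KO cells thus had more AIM2 RNA than WT cells after LPS, with 151 as the lowest KO value and 43.4 as the highest WT LPS value.

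The RefSeq start of AIM2 lies within the GENCODE gene, whose longest model begins further upstream. The 250 bases before this start (GRCh38.p14, minus strand) overlapped no annotated exon and are shown because AIM2 is the component whose level differed between the lines. Capitals mark a match to the interferon regulatory factor type motif, spelled as GAAA, any 2 bases and GAAA again and searched on both strands.

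AIM2, chr1:159076767-159077016: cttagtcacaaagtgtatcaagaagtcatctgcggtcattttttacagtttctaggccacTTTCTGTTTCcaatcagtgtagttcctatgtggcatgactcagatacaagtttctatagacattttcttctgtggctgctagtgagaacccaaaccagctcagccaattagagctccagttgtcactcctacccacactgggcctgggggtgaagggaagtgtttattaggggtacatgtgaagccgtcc

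The match begins 190 bases before the start and reads GAAACAGAAA on the other strand. Such a match was present in 3.02% of the 35116 upstream windows of 250 bases in the RefSeq table. Windows of 7 of the 10 components were looked at singly, and among these CASP5 was the only other one with this motif. No window was looked at for NLRP1, CASP1 or GSDMD, so the motif is unknown for them here. The motif TTCNNNGAA, found in 6.57% of all windows, was not in the AIM2 window. A match is a description of the letters and not a binding site.

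The genes nearest to AIM2 in pattern were sought among the 12398 tested genes that are not components, by the root mean square difference of the 8 centred group means of log2(normalized count + 1). The nearest was GBP1, an interferon-induced guanylate-binding protein, at 0.28, against a range of 5.29 in the AIM2 group means. GBP1 had a mean of 22.9 ± 9.81 in WT, 413 ± 91.7 in KO, 101 ± 35.8 in HA and 45.5 ± 12.96 in SA, and of 52.1 ± 12.2, 771 ± 239.8, 238 ± 64.4 and 134 ± 15.7 in the same lines with LPS (SD, n = 4). Its window also holds the motif, as TTTCAGTTTC from base 127 before its start, while the windows of RGL1 and IFI16, and those of IRF1 and IL1B, hold 0 matches to it. The next were RGL1, a regulator of Ral signalling, at 0.45 and SLAMF7, a receptor of the SLAM family on immune cells, at 0.53. No tested gene came within 0.1 of AIM2. Whether the window of SLAMF7 holds the motif is not given here, and the genes looked up for the motif were chosen after values were seen.

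AIM2 belongs to the HIN-200 family, whose human members lie side by side on chromosome 1, and the other members were looked up after the AIM2 values were known. IFI16 (158999968 to 159055155), a nuclear DNA sensor, had a mean of 721 ± 158 in WT, 3054 ± 883 in KO, 1967 ± 796 in HA and 992 ± 87.1 in SA. It was called higher in KO than in WT (log2 fold change 2.07, SE 0.25, adjusted p = 1.40e-06) and in HA than in WT (1.38, adjusted p = 8.20e-04), and likewise with LPS (1.85, adjusted p = 8.48e-06, and 1.19, adjusted p = 0.00401). MNDA, a nuclear antigen of myeloid cells, was higher in KO than in WT by 1.35 (adjusted p = 1.55e-05) and in KO LPS than in WT LPS by 1.80 (adjusted p = 1.35e-07), and in HA against WT by 0.79 (adjusted p = 0.00999) and 1.18 (adjusted p = 1.86e-04) without and with LPS. PYHIN1 had 502 reads over the 32 libraries, and its difference between KO and WT of 0.77 (SE 0.60, adjusted p = 0.694) was not called.

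**Figure D2:**
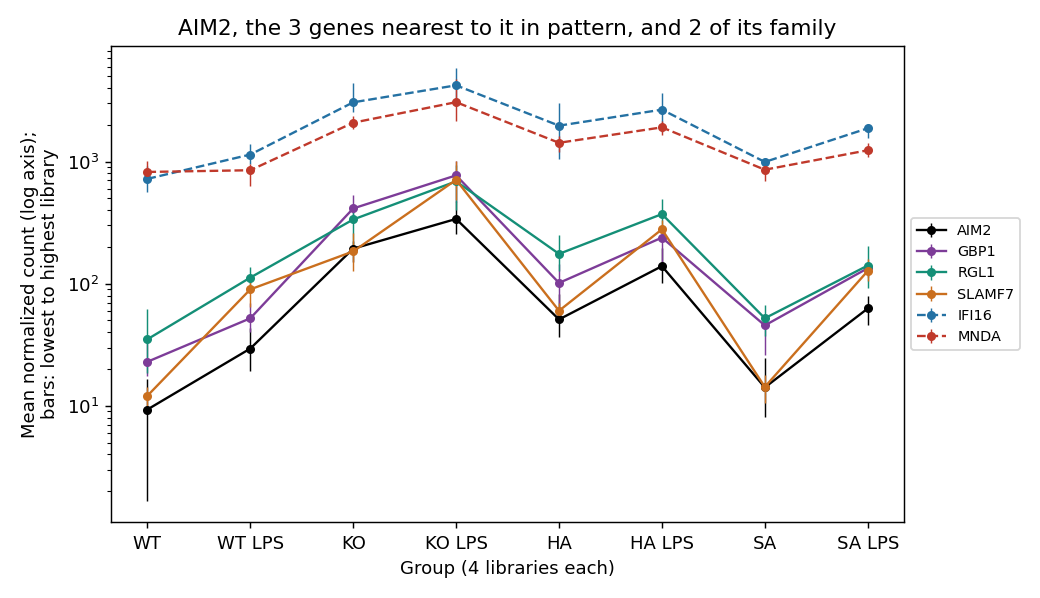
Mean normalized count of AIM2, of GBP1, RGL1 and SLAMF7 (the 3 tested genes nearest to it in pattern) and of IFI16 and MNDA (its family) in the 8 groups, on a log axis; bars run from the lowest to the highest of 4 libraries. AIM2 rises from a mean of 9.32 in WT to 339 in KO LPS, and GBP1 from 22.9 to 771.

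The summed normalized count of the 10 monocytic markers ran from 12401 to 13747 in WT, from 12330 to 12953 in SA, from 22477 to 28664 in HA and from 24396 to 35006 in KO. LYZ, the lysozyme gene, was called higher in KO and in HA than in WT. It weighed most in this sum, with the highest mean of the 10 (11561 over all libraries). It was the only marker called between untreated HA and WT. Its normalized counts ran from 3768 to 5804 in WT, from 3367 to 6413 in SA, from 10662 to 18940 in HA and from 10957 to 26943 in KO. CD14, a co-receptor for LPS, was higher in KO than in WT, and the other 8 markers were not called between untreated KO and WT. With LPS, LYZ was again higher in both lines, while CD33 was lower in KO LPS and CD14 and ITGAM were lower in HA LPS than in WT LPS. The part of these markers in the AIM2 differences was not tested, and in bulk RNA a change in the share of cells that express a gene and a change in RNA per cell cannot be told apart.

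NLRP3 (ENSG00000162711; chromosome 1, 247416156 to 247449108, plus strand) is the sensor that answers ion fluxes and membrane damage. It stood at 173, 209, 226 and 193 in WT and at 187, 167, 200.5 and 174 in WT LPS, and these ranges overlapped. Across the 8 groups its mean ran from 164 ± 44.04 in KO LPS to 258 ± 49.99 in HA. The LPS log2 fold change was negative in all 4 lines, at -0.13 in WT, -0.39 in KO, -0.42 in HA and -0.21 in SA, and was called in none (adjusted p from 0.769 to 1.00). In WT the 95% interval ran from -0.51 to 0.25, so a doubling after 3 hours of LPS lay outside it. KO against WT was 0.07 (95% interval -0.31 to 0.45) and changed sign on the deposited scale.

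NLRC4 (ENSG00000091106; chromosome 2, 32224453 to 32265732, minus strand) senses bacterial flagellin and secretion system proteins together with NAIP. Its counts were 66.7, 57.2, 73.0 and 56.1 in KO and 34.4, 30.9, 38.3 and 46.2 in KO LPS. All KO LPS libraries were below all KO libraries, which 3.45% of genes showed in either direction, but the log2 fold change of -0.75 (SE 0.35, adjusted p = 0.892) was not called. In HA the counts were 117, 81.4, 51.9 and 32.6 untreated and 13.9, 30.2, 42.6 and 19.7 with LPS, which overlapped, with a log2 fold change of -1.34 (95% interval -2.06 to -0.62, unadjusted p = 7.03e-04 in the limma fit, adjusted p = 0.0928). SA gave -0.89 (adjusted p = 0.372) and WT -0.13 (adjusted p = 1.00). Untreated KO was above untreated WT in every library, by 0.58 (adjusted p = 0.517), where 12% of genes did not overlap.

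MEFV (ENSG00000103313; chromosome 16, 3242027 to 3256633, minus strand) encodes pyrin, a sensor that responds to certain bacterial toxins. Its group means ran from 49.6 ± 10.6 in WT LPS to 99.5 ± 101 in SA LPS. The latter rested on library 1, at 250.1, beside 62.3, 49.9 and 35.9 in the other 3. The log2 fold change of SA LPS against SA was 0.46 with this library and -0.13 without it, and neither was called. NLRP1 (ENSG00000091592; chromosome 17, 5499415 to 5619424, minus strand), a sensor of viral proteases and of double-stranded RNA, had 0 to 10 reads in a library and 70 reads in all, with 8 of 32 libraries at 0. At this depth no difference was detectable: a fit without the filter called it in 0 of 15 comparisons, the lowest adjusted p being 0.477.

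PYCARD (ENSG00000103490; chromosome 16, 31201486 to 31203450, minus strand), which encodes the adaptor ASC that links sensors to caspase-1, was well covered, with 2207 to 6434 reads in a library. Its normalized count was 4631, 4289.9, 3836 and 4395 in WT and 5140.5, 3894, 3141 and 4577 in KO, and the ranges overlapped. Group means stayed between 3526 ± 713 in SA LPS and 4521 ± 828 in HA. KO differed from WT by -0.05 on the log2 scale (95% interval -0.38 to 0.27) and KO LPS from WT LPS by -0.0027 (95% interval -0.32 to 0.32), and without the libraries numbered 3 these were 0.02 and 0.05. SA against WT was -0.28 (95% interval -0.60 to 0.04, adjusted p = 0.998) and was not called. An antisense gene, PYCARD-AS1, overlaps it, with 2530 reads over all libraries beside 135591 for PYCARD, and whether the counting used strand is not given in the sources used here.

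**Figure D3:**
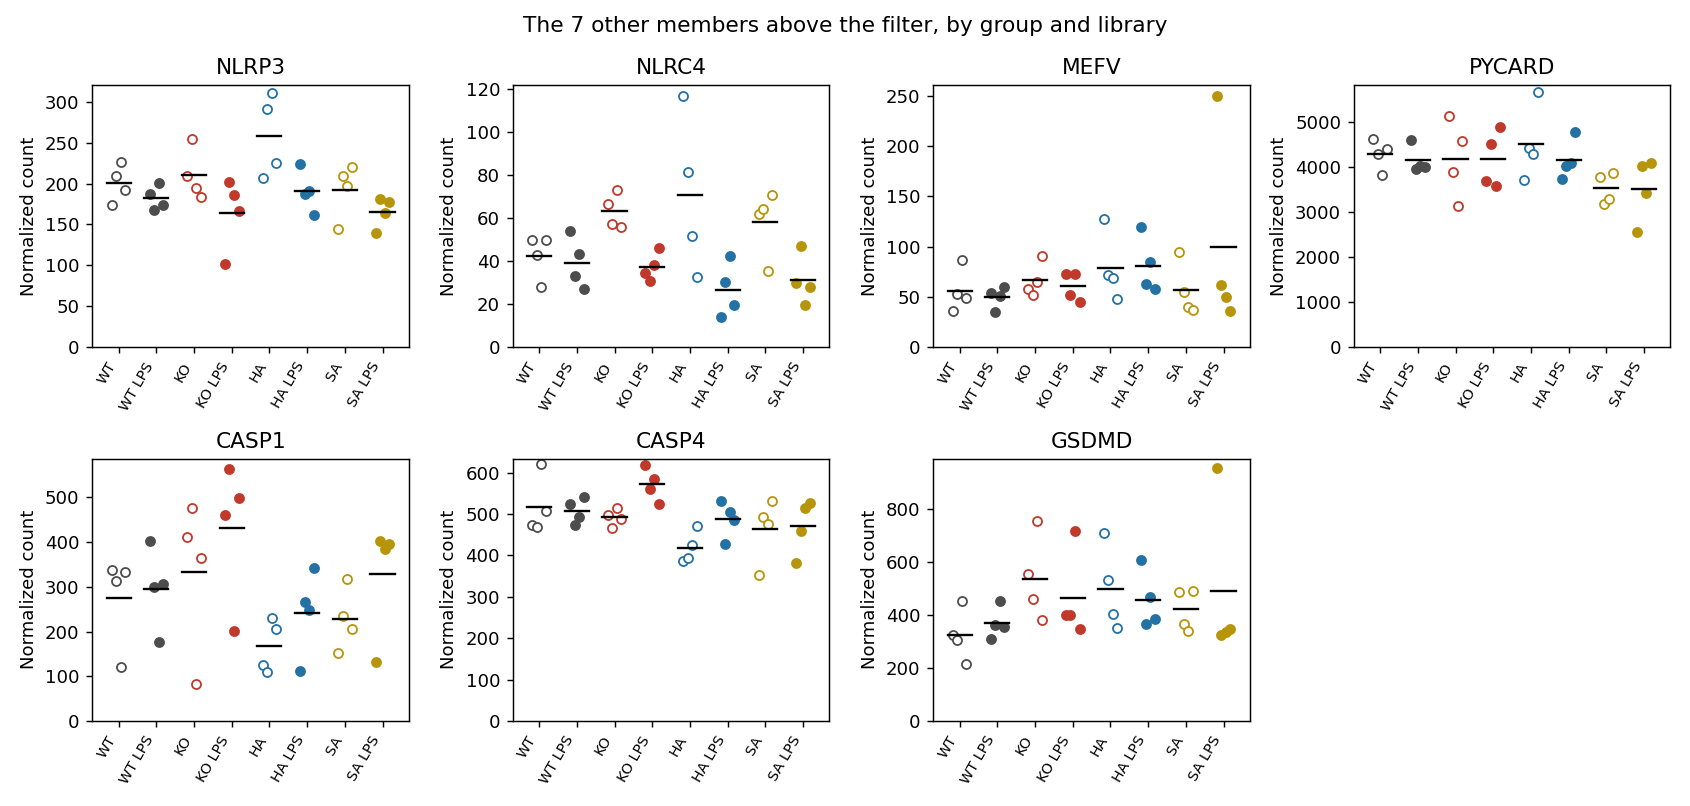
Normalized counts of the 7 components other than AIM2 that passed the filter, by group; each circle is a library (open untreated, filled with LPS), each line the mean of 4, and each axis starts at 0. The groups overlap for most genes, and libraries of a group lie far apart in CASP1, where KO runs from 82.4 to 475.

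CASP1 (ENSG00000137752; chromosome 11, 105025397 to 105035250, minus strand) encodes the protease that matures IL-1β and IL-18. Of the 8 tested components it had the largest within-group standard deviation, 0.72 on the log2 scale over the 8 groups. The 4 WT libraries stood at 338, 312, 121 and 333 and the 4 KO libraries at 412, 475, 82.4 and 363, so library 3 was the lowest in both lines. The KO difference of 0.12 (SE 0.48, 95% interval -0.87 to 1.10) was not called. With LPS the counts were 403, 299, 177 and 306 in WT LPS and 460.2, 563, 201 and 499 in KO LPS, a log2 fold change of 0.50 (95% interval -0.48 to 1.48, adjusted p = 0.716), or 0.60 without the libraries numbered 3. HA was the lowest group, at 126, 109, 230.0 and 206, and its difference from WT of -0.67 (adjusted p = 0.379) was also within the spread. Without the 4 WT and KO libraries numbered 3 it was -1.03 (adjusted p = 0.0505) and the KO difference 0.34, neither of them called, and KO against HA was 1.37 (adjusted p = 0.0389) instead of 0.79.

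GSDMD (ENSG00000104518; chromosome 8, 143553207 to 143563062, plus strand) encodes the pore that lets the cytokines out and kills the cell by pyroptosis. It stood at 325, 305, 452 and 214 in WT and at 554, 463, 754 and 379.9 in KO, and the ranges overlapped. Library 3 was the highest in both. The log2 fold change was 0.73 (SE 0.30, 95% interval 0.11 to 1.35, adjusted p = 0.218) and was not called, nor was it without the libraries numbered 3 (0.73, adjusted p = 0.328). Same-numbered WT and KO libraries deviated together, and in a fit of these 2 groups with the replicate number as a block the same difference had an SE of 0.11 and an adjusted p of 0.00147. That fit called 2 of 8 tested components, AIM2 and GSDMD, against 5.84% of all genes. GSDMD was higher in KO than in the same-numbered WT library in 4 of 4 pairs. The share of all genes with 1 direction in 4 of 4 pairs is not given here. The labels do not say whether the numbers pair the libraries. In KO LPS it stood at 399.7, 398, 718 and 346 against 309.8, 364, 451 and 354 in WT LPS, a log2 fold change of 0.28 (adjusted p = 0.758), or 0.15 without the libraries numbered 3. HA against WT was 0.62 (95% interval -0.00013 to 1.24, adjusted p = 0.204) and SA against WT 0.41 (adjusted p = 0.998). SA LPS against SA was 0.07 with library 1 and -0.30 without it.

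CASP1 and GSDMD deviated in opposite directions from their group means. In 6 of 8 groups the library with the lowest CASP1 was the one with the highest GSDMD. The library with the highest CASP1 was the one with the lowest GSDMD in 3 of 8 groups. In SA LPS the library with the lowest CASP1 was library 1, with 131 for CASP1 and 954 for GSDMD, while the other 3 libraries ran from 384 to 403 and from 326 to 347. Over the 32 libraries the deviations had a Pearson correlation of -0.84, given as a description, since points of a group share its mean and the normalization of a library. The deviations of MEFV went with those of GSDMD (0.68) and those of PYCARD with those of CASP1 (0.68). In 5 of 8 groups the library with the lowest CASP1 also held reads on the fewest genes, and over the 32 libraries the deviation of CASP1 had a correlation of 0.73 with that of the number of genes with a read, and GSDMD one of -0.84. Over the 27 libraries left without SA LPS 1 and the 4 numbered 3, a choice made after seeing the data, CASP1 and GSDMD had a correlation of -0.69, MEFV and GSDMD 0.42 and PYCARD and CASP1 0.29, and the number of genes with a read had one of 0.61 with CASP1 and -0.69 with GSDMD. Over the 32 libraries, the main axis of the within-group deviations of the tested genes outside the list held 52.1% of their variance. With this axis, oriented to rise with GSDMD, the deviations of GSDMD had a correlation of 0.91 and those of CASP1 -0.91. MEFV had 0.78, PYCARD -0.69 and the other tested components -0.24 to 0.35. The opposite deviations were thus not particular to this pair. The part of library quality in this pattern was not tested.

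**Figure D4:**
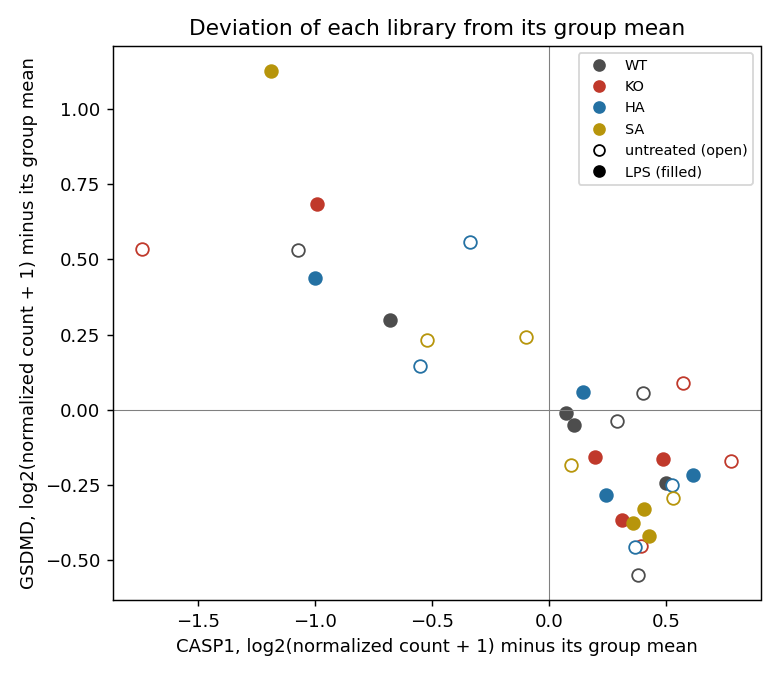
Deviation of GSDMD from its group mean against that of CASP1, in log2(normalized count + 1), for the 32 libraries. The libraries far to the left, low in CASP1, lie above 0 for GSDMD, and library 1 of SA LPS is the highest.

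CASP4 (ENSG00000196954; chromosome 11, 104942866 to 104969366, minus strand), the human receptor for LPS in the cytosol, varied least among libraries, from 353 to 620.5. In KO it stood at 498, 467, 515 and 488 and in KO LPS at 618, 561, 586 and 525. Every KO LPS library was above every KO library, where 3.45% of genes did not overlap, but the log2 fold change of 0.22 (SE 0.13, adjusted p = 1.00) was not called. HA against WT was -0.30 (95% interval -0.56 to -0.04, adjusted p = 0.150) and KO against WT -0.06 (95% interval -0.33 to 0.20), neither of them called.

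CASP5 (ENSG00000137757; chromosome 11, 104994235 to 105023168, minus strand), the paralogue of CASP4 and a receptor for LPS as well, was near the limit of detection, with 127 reads in all. Summed over 4 libraries it had 7 reads in WT, 12 in WT LPS, 20 in KO, 43 in KO LPS, 5 in HA, 21 in HA LPS, 4 in SA and 15 in SA LPS. Each line had more reads with LPS than without. The normalized counts were 21.3, 5.95, 7.41 and 10.96 in KO LPS and 0, 0.867, 4.69 and 5.55 in WT LPS. These did not overlap, by a gap from 5.55 to 5.95, where 13.9% of the tested genes did not. In a fit without the filter on low counts this difference was 1.95 on the log2 scale (SE 0.81, adjusted p = 0.301), and CASP5 was called in 0 of 15 comparisons. The 250 bases before its RefSeq start are shown because CASP5 is the other component, among those looked at, with the interferon regulatory factor type motif. Capitals mark 2 overlapping matches to the same motif at the 5′ end and 1 match to TTCNNNGAA.

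CASP5, chr11:105023169-105023418 (GRCh38.p14, minus strand): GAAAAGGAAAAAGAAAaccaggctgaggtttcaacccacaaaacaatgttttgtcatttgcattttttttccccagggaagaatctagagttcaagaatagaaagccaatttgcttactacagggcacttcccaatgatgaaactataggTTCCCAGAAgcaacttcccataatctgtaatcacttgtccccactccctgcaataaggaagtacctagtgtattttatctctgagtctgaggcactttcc

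In a global alignment this window was identical to that of CASP4 at 175 of 269 aligned positions (65.1%), and the CASP4 window held neither motif. CASP1, CASP4, CASP5 and the CARD-only genes lie side by side on chromosome 11 and are near copies in part, and how reads that match several of them were counted is not given in the sources used here, so their separate counts are uncertain to that extent. CARD16, a decoy that can block recruitment of caspase-1, ran from 158 to 364 over all libraries and was called in no comparison, while CARD17 and CARD18 had 0 reads in all 32 libraries.

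**Figure D5:**
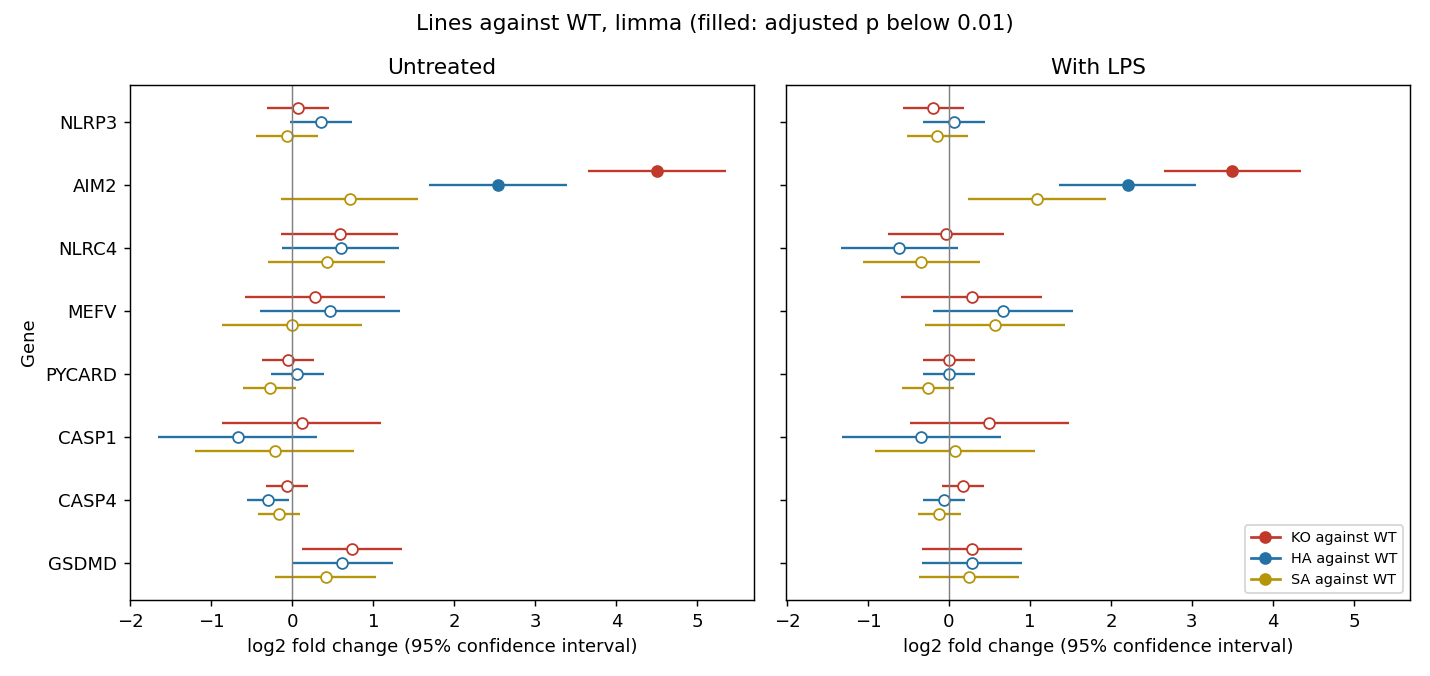
Log2 fold change with its 95% confidence interval for the 8 tested components in KO, HA and SA against WT, untreated and with LPS; filled circles have an adjusted p below 0.01. AIM2 in KO and HA is filled in both panels, at 4.50 and 2.54 untreated and at 3.50 and 2.21 with LPS, and the others are open.

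As a list, the 8 tested components had a median log2 fold change of 0.20 in KO against WT, beside -0.03 over all 12406 genes, and of 0.41 in HA against WT, beside -0.02. With LPS the medians were 0.23 in KO LPS and 0.03 in HA LPS, beside -0.01 and -0.03. For LPS against untreated they were between -0.06 and 0.05 in the 4 lines.

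Other genes of the pathway were taken from a list of 49, of which 48 were found and 35 passed the filter. In KO against WT 5 of 35 were called higher and 0 lower, where 1.8% and 1.1% of all genes were (223 and 137 genes, and 185 and 184 on the deposited scale). Among these were the decoy receptor IL1R2, which binds IL-1 without signalling (2.54, adjusted p = 0.00633), IFI16, the NLRP3 regulator GBP5 (1.57, adjusted p = 0.00221) and the transcription factor IRF1 (0.84, adjusted p = 0.00213). In the fit of only these 2 groups with the replicate block 8 of 35 were higher, against 5.84% of all genes called in either direction, where the same fit without the block called 4 and the block over all groups 8, and without the 4 libraries numbered 3 it was 3 of 35. In HA against WT, where 1.42% and 1.1% of all genes were called higher and lower (176 of 313 calls higher, and 406 of 503 on the deposited scale), 2 of 35 were higher, IFI16 among them, and 1 was lower, the helicase DHX33 (-1.09, adjusted p = 0.00115), which helps to activate NLRP3 on cytosolic RNA. In SA against WT 0 of 35 were called, with 1 at an unadjusted p below 0.05 in the limma fit.

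With LPS 7 of 35 were higher in KO LPS than in WT LPS and 0 lower, against 2.14% and 1.33% of all genes (265 of 430 calls higher, and 222 of 475 on the deposited scale), and 4 of 35 were higher in HA LPS than in WT LPS and 0 lower, against 1.16% and 0.854% (144 of 250, and 280 of 352). Leaving out WT LPS 1, 2 or 4 or HA LPS 1, 2 or 3 lowered the HA LPS count to 1 or 2, and without the libraries numbered 3 it was 2, with 1 lower. Also 1 was lower with the block over all groups and when any of 7 single libraries (KO 2, KO 3, KO LPS 2, KO LPS 3, HA 4, SA 2 or SA LPS 1) was left out. Between SA LPS and WT LPS 0 of 35 were called, with 5 at an unadjusted p below 0.05 in the limma fit. Between KO and HA 0 of 35 were called, against 0.202% higher and 0.0242% lower (25 of 28 calls higher, and 10 of 28 on the deposited scale). In the fit of only KO LPS and WT LPS with the replicate block 15 of 35 were higher in KO LPS, against 10.8% of all genes, where the same fit without the block called 7 and the block over all groups 8. The largest in KO LPS were GBP5 (2.23, adjusted p = 2.52e-05), IL1RN, the antagonist of the IL-1 receptor (1.96, adjusted p = 0.00136), and IL1B (1.93, adjusted p = 0.00108). IL1B, the main substrate of caspase-1, had counts of 61.0 to 233 in WT LPS and of 319 to 823 in KO LPS, which did not overlap, as for 13.9% of all genes. In HA LPS IFI16, IRF1 (1.16, adjusted p = 7.41e-05) and IRF2 (0.80, adjusted p = 0.00841) were among those higher, and IL1B was not called (1.06, adjusted p = 0.130). IL18, the other cytokine cut by caspase-1, was called in no comparison and had means from 7.18 ± 7.39 in HA to 49.1 ± 21.1 in WT.

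LPS against untreated called 2 of 35 in WT, 3 in KO, 3 in HA and 4 in SA, all higher, where 0.25%, 0.508%, 0.387% and 0.468% of all genes were called higher and 0%, 0.0725%, 0.0161% and 0.0242% lower. In fits of only the groups compared with the replicate block it was 7 in WT and 5 in KO, against 1.02% and 0.935% of all genes, where the same fits without the block called 2 and 2 and the block over all groups 2 and 3, and without the libraries numbered 3 it was 0 in WT and 2 in KO. GBP5 and IRF1 were called in all 4 lines, GBP5 with log2 fold changes of 1.82 in WT, 2.47 in KO, 2.32 in HA and 2.49 in SA, and IRF1 with 0.97, 1.88, 1.43 and 1.41. IL1B was called in HA (2.54, adjusted p = 1.48e-04) and SA (2.66, adjusted p = 7.08e-05) but not in WT (1.35, adjusted p = 0.270) or KO (1.73, adjusted p = 0.0147), and the difference between the lines was called in none. TNF was called in KO, HA and SA (1.02, 0.95 and 0.97) and CXCL8 in no line.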

How the data were processed

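Libraries were QuantSeq 3′ mRNA libraries of 32 samples, grouped by the labels into 8 groups of 4. The authors demultiplexed with bcl2fastq, trimmed with Bbduk, aligned to GRCh38 with STAR, counted with HTSeq-count and normalized with DESeq2; versions and the annotation are not given in the sources used here. The deposited values, another unit than raw reads, are counts divided by size factors that were computed within each line, so lines are not on a common scale. For all libraries 100% of values above 0 were whole reads (within 0.05 reads) once the factors were undone, and 1 read fell on the 92 spike-in rows. These reads were rescaled with median-of-ratios factors over all 32 libraries; the result is the normalized count above. limma 3.58.1 in R 4.3.3 fitted log2(normalized count + 1) with an intensity trend over 8 groups, for 12406 genes with a mean deposited count of at least 10; calls were made at a Benjamini-Hochberg adjusted p below 0.01 in 15 comparisons. A count model was not used. The script was tested on simulated data. Intervals are at 95%. Gene positions and overlaps are from GENCODE 44, upstream sequences from RefSeq (GRCh38.p14).

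Named genes were the 10 components, ACLY, IL1B, TNF, CXCL8, CARD16, CARD17 and CARD18, the pathway genes with the 3 largest rises and falls among the calls of a comparison, and the 3 genes nearest in pattern; other called pathway genes, MNDA and PYHIN1 and the motifs were added after values were seen. The components and lists were chosen with earlier results of these data known. Whether replicate numbers pair samples was checked on the deviations from group means: same-numbered WT and KO libraries, with and without LPS, all correlated above 0.1 (lowest 0.12), and comparisons with HA or SA did not, so the block is given for the former. Alternatives were the deposited scale, a pseudocount of 0.5, no filter, a replicate block, fits of only the groups compared and leaving out each library; leaving out the 4 libraries numbered 3 was chosen after seeing the data. The labels give 100 ng/ml LPS; a methods paragraph of the study gives another concentration. Results of 1 pathway gene are not reported here by name; it remains in the counts.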

Additional observations from a re-analysis of the deposited data

Results flagged for a closer look

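In each set of 4 libraries the extreme value was compared with the others by Dixon's test at 95%, in 72 sets (8 tested components and ACLY in 8 groups), of which chance flags about 1 in 20; 7 sets had a library far from the other 3. Library 1 of SA LPS gave 4 of them. It stood at 250.1 for MEFV beside 35.9 to 62.3 in the other 3, at 131 for CASP1 beside 384 to 403, at 954 for GSDMD beside 326 to 347 and at 329 for ACLY beside 95.8 to 110.3. In library 3 of WT, CASP1 stood at 121, below 312 to 338 in the others. In library 3 of KO LPS, GSDMD stood at 718, above 346 to 399.7. In library 1 of WT LPS, PYCARD stood at 4610.4, above 3964 to 4033. AIM2 had no such library in any group.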

How the results depend on the processing

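The count tests edgeR and DESeq2 were not run. AIM2 in KO against WT, with and without LPS, kept its call in all alternatives run, with log2 fold changes from 3.95 to 4.85 untreated and from 3.32 to 3.70 with LPS when 1 library was left out, and adjusted p of at most 0.00147. Among components, the number called fell from 1 to 0 with only the groups compared in SA LPS against SA and in HA against WT. It also fell from 1 to 0 with the replicate block in those fits in SA LPS against SA, HA against WT and HA LPS against WT LPS (AIM2 adjusted p 0.283, 0.0519 and 0.0366). Over all genes, the fits without the block called 7 in SA LPS against SA and 196 in HA against WT. With the block these 3 comparisons had 3, 8 and 7 calls, against 61, 313 and 250 in the main fit. The cause was not tested. The number of components called rose to 2 in KO against WT in the blocked fit of only these groups, where 724 genes were called, against 360 in the main fit. In KO against HA it rose from 0 to 1 (AIM2) with the block over all groups (adjusted p = 0.00763), where 48 genes were called, against 28. When 1 library was left out the number of components called ran from 0 to 1 in SA LPS against SA and in KO against HA. In the latter WT 2 or HA 1 left out gave the call (adjusted p = 0.0025 and 0.00867), with 24 and 35 genes called over all genes. The block changed no other call of a component.

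The deposited scale shifts all genes of a line, by 0.15 for HA, 0.26 for SA and -0.09 for KO against WT, and on it these differences, called on neither scale, changed sign: NLRP3 (0.19) and CASP4 (0.10) in SA against WT, NLRP3 (0.12), PYCARD (0.0107) and CASP4 (0.15) in SA LPS against WT LPS, CASP4 in HA LPS against WT LPS (0.0934), in KO against HA (-0.0051) and in KO LPS against HA LPS (-0.0183). When 1 library was left out, CASP1 in KO LPS against KO ran from -0.0443 (without KO 3) to 0.865, NLRP3 in KO LPS against WT LPS from -0.305 to 0.0215 (without KO LPS 1), MEFV and GSDMD in SA LPS against SA from -0.13 to 0.790 and -0.30 to 0.211, and in SA LPS against WT LPS from -0.0141 to 0.908 and -0.12 to 0.393, the lowest 4 all without SA LPS 1. The causes were not tested. Another 117 of 4680 values changed sign by less than 1 standard error. Over all genes, WT LPS against WT had 31 calls, 39 with the block over all groups, 14 with only the groups compared and 126 with those and the block. KO LPS against WT LPS had 430, 554, 300 and 1336 in the same order, and SA LPS against SA 61, 71, 7 and 3. The 35 pathway genes called higher in KO against WT ran from 2 (without WT 1 or KO 3) to 8 (without SA LPS 1), and in WT LPS against WT from 0 (without WT 1, WT 2 or any of WT LPS 2, 3 and 4) to 2. Depth limits NLRP1 and CASP5, and the 3′ reads say nothing of protein or of cleavage.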
